A study of Mus musculus with 4 samples.

Results

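The 10 genes followed here are those whose intensity was at least 2-fold higher in Foxo1-deficient than in wild-type CD4 T cells and at least 2-fold lower in Foxo1-deficient than in wild-type CD8 T cells. They are Nudt21, Ghitm, Zfp142, R3hdm1, Zfp148, E2f5, Exoc6, Sh3kbp1, Trpm7 and Rlf, out of 507 genes with a symbol in the authors' deposited fold change tables. They are represented by 11 of the 45037 probe sets analysed, since Nudt21 has 2 named probe sets and each other gene has 1. Only probe sets in those tables carry a symbol. Any other probe sets of these genes on the array could not be identified, so whether they changed is not known. For each gene the probe set with the highest mean intensity decided whether it belonged. The intensities that chose the genes are the same ones described here, so all differences between genotypes are given as descriptions without a test.

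The mice were 6 to 8 weeks old, and their T cells came from spleen and lymph nodes. The 4 groups were Foxo1-deficient CD4, wild-type CD4, Foxo1-deficient CD8 and wild-type CD8 T cells, with 1 Affymetrix array each. No group has a replicate, and the spread between mice, between preparations or between hybridisations cannot be estimated. The allele that removes Foxo1, the cell type in which it acts, the strain and the number of mice pooled per RNA are not stated in the sources at hand. The brightest Foxo1 probe set read 1107 in Foxo1-deficient against 8204 in wild-type CD4 T cells, and 1836 in Foxo1-deficient against 6902 in wild-type CD8 T cells, so the targeted transcript was lower in both deficient arrays. The other named Foxo1 probe sets were lower by more in both cell types, down to a log2 difference of -4.35 in CD4 and -2.52 in CD8. None of 8 T cell marker genes, Cd4 and Cd8a among them, carries a symbol here, and the labelled cell types could not be checked on them. Values below 74.9, the median of all intensities that are not controls, are treated as unmeasured, and a fold against such a value is a lower bound, written "at least". Of the array intensities, 49.3% to 51.4% lay below this floor. In bulk T cells, fewer cells of a kind and less RNA per cell cannot be told apart.

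Foxo1 is a forkhead transcription factor that holds T cells in a quiescent, naive state by activating genes for homing and for survival signals. When antigen receptor and growth factor signals activate the kinase Akt, Foxo1 leaves the nucleus. The 10 genes do not form a known pathway. They encode proteins of RNA processing (Nudt21, R3hdm1), nuclear DNA-binding proteins (Zfp142, Zfp148, Rlf, E2f5), proteins of membrane traffic and ion transport (Exoc6, Sh3kbp1, Trpm7) and an inner mitochondrial membrane protein (Ghitm).

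In all 10 genes the Foxo1-deficient CD4 array and the wild-type CD8 array both read higher than the wild-type CD4 array and the Foxo1-deficient CD8 array. As background, 1.5% of all probe sets compared in CD4 T cells differed by 2-fold or more towards the deficient array, and 2.04% of those compared in CD8 T cells did so towards the wild-type array. Both conditions together were met by 23 of 22498 probe sets compared in both cell types, or 0.102%. The 10 genes were selected by these conditions, so nothing is read from their own count of 10 of 10. The deficient minus wild-type log2 difference of the 10 genes had a median of 1.21 in CD4 (lowest 1.10, highest 3.02) and -1.47 in CD8 (lowest -3.08, highest -1.10), beside medians of 0.017 and -0.0031 over all probe sets compared. As a measure of the spread between probe sets alone, the log2 differences of different probe sets of the same gene varied by 0.39 in CD4 and 0.38 in CD8 (pooled SD, 76 genes each). Such probe sets share the same arrays, so this spread leaves out that between hybridisations, preparations or mice. It covers named probe sets only, which the authors had listed for a change.

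**Figure D1:**
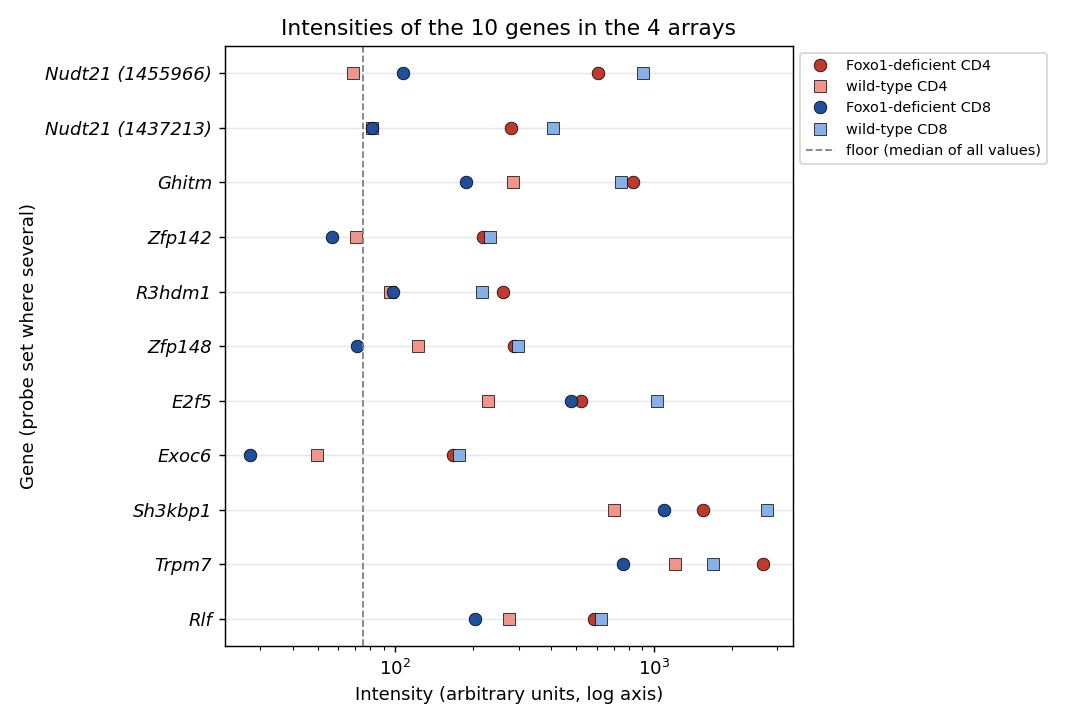
Intensity (log axis, arbitrary units) of each named probe set of the 10 genes in the 4 arrays, 1 point per array; the dashed line is the floor of 74.9. In every row the Foxo1-deficient CD4 and wild-type CD8 points lie to the right of the wild-type CD4 and Foxo1-deficient CD8 points, by a small margin in E2f5.

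Nudt21 encodes the small subunit of cleavage factor I, which binds nascent transcripts upstream of poly(A) sites and steers the choice between alternative sites of 3′ end cleavage. Its brightest probe set read 609 in Foxo1-deficient against 68.7 in wild-type CD4 T cells, and 107 in Foxo1-deficient against 906 in wild-type CD8 T cells. The wild-type CD4 value lay below the floor, so the deficient CD4 array was at least 8.13-fold higher, and the deficient CD8 array was 8.45-fold lower. Its CD4 minus CD8 log2 difference was at least 6.10. The second Nudt21 probe set moved the same way with smaller sizes. It read 279 in Foxo1-deficient against 81.1 in wild-type CD4 T cells, 3.44-fold higher, and 81.1 in Foxo1-deficient against 408 in wild-type CD8 T cells, 5.03-fold lower. The brightest probe set has the suffix _s_at, which on Affymetrix arrays marks probes that can match more than 1 transcript, as does that of Trpm7, while the second Nudt21 probe set has the suffix _at of probes designed for a single transcript. In the authors' deposited tables the brightest probe set was higher by 6.49-fold in deficient CD4 and lower by 7.28-fold in deficient CD8 T cells. None of the other 20 genes of a list of 3′ end processing factors, which includes the partner subunits Cpsf6 and Cpsf7, carries a symbol here, so Nudt21 could not be set beside its complex.

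The stretches of 250 bases before the annotated start are shown for Nudt21, Ghitm and Zfp142, the 3 genes with more than 1.5 log2 units of difference in both cell types on floored values, where the smaller differences of Exoc6 are lower bounds. They come from RefSeq on the build GRCm38.p6, run 5′ to 3′ on the strand of the gene, and for Ghitm show the first of 3 annotated starts. Capitals mark CCAAT boxes (CCAAT or, on the other strand, ATTGG) and GC boxes (GGGCGG or CCGCCC). The windows are chr8:94037040-94037289 for Nudt21, chr14:37135323-37135572 for Ghitm and chr1:74588029-74588278 for Zfp142, all on the minus strand.
Nudt21: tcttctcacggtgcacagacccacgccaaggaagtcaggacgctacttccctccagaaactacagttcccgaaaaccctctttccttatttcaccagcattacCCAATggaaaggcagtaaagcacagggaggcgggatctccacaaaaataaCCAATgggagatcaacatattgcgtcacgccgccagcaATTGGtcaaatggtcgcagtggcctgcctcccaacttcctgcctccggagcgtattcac
Ghitm: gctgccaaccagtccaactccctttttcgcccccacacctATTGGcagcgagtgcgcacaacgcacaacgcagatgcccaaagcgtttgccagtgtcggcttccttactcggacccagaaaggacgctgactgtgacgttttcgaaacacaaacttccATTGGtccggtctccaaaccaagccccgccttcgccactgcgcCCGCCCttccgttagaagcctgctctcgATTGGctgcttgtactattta
Zfp142: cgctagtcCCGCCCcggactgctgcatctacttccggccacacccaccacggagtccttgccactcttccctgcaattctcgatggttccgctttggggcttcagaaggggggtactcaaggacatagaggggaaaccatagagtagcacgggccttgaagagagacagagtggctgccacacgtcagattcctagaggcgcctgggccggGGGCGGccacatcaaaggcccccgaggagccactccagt

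Of the 10 genes, 9 had an entry among these promoters, on 8 chromosomes, with 16 annotated starts in all; E2f5 had none. The forkhead core GTAAACA, searched on both strands as GTAAACA or TGTTTAC, was found in 0 of the 9 genes, and in 3.54% of all 27025 genes with a promoter. No match says only that these letters are not in these windows. The CCAAT box was found in 4 of 9 (Nudt21, Ghitm, R3hdm1 and Rlf), against 37.5% of all genes, and the GC box in 6 of 9 (Ghitm, Zfp142, Zfp148, Exoc6, Sh3kbp1 and Rlf), against 35.4%. The TATA box TATAAA was found in 1 of 9 (Sh3kbp1), against 14.3%. A gene was counted if the window of any of its annotated starts held the motif. The 9 genes have 16 windows and all 27025 genes have 32851, so the 9 had more windows per gene. The first window of Zfp148 held no GC box and that of Sh3kbp1 no TATA box, so these matches lie at other starts. None of the motifs contains another. The windows shown for Nudt21 and Ghitm hold 3 CCAAT boxes each, and that of Zfp142 holds 2 GC boxes and no CCAAT box. The G and C content of the first window of each gene was 50.8% to 76.4%, with a median of 61.6%, against a median of 52.4% over all 32851 windows.

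R3hdm1 encodes a protein with an R3H domain, a fold that binds single-stranded nucleic acids. It read 262 in Foxo1-deficient against 95.0 in wild-type CD4 T cells, 2.75-fold higher, and 98.1 in Foxo1-deficient against 215 in wild-type CD8 T cells, 2.20-fold lower. All 4 values were above the floor. In CD8 T cells it lay close to the threshold. With the arrays centred on their medians, which differ by -0.16 log2 units between deficient and wild-type CD8, it was no longer 2-fold lower there. The authors' deposited table lists R3hdm1 in CD4 (2.24-fold higher) and not in CD8.

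Zfp142, Zfp148 and Rlf encode zinc finger proteins. Zfp148 is a Krüppel-type transcription factor that binds GC-rich promoter sequences, and Rlf is a large nuclear zinc finger protein first known in human as a fusion partner of the L-Myc gene. Zfp142 read 217 in Foxo1-deficient against 70.2 in wild-type CD4 T cells, and 57.0 in Foxo1-deficient against 232 in wild-type CD8 T cells. Both low values were below the floor, so the fold is at least 2.90 towards the deficient array in CD4 and at least 3.10 towards the wild-type array in CD8. Zfp148 read 288 in Foxo1-deficient against 123 in wild-type CD4 T cells, 2.35-fold higher, and 71.1 in Foxo1-deficient against 297 in wild-type CD8 T cells, at least 3.97-fold lower. Rlf read 588 in Foxo1-deficient against 274 in wild-type CD4 T cells, 2.15-fold higher, and 203 in Foxo1-deficient against 626 in wild-type CD8 T cells, 3.08-fold lower. In these 3 genes the Foxo1-deficient CD4 and wild-type CD8 arrays were nearly level, at a log2 difference of -0.092 (Zfp142), -0.043 (Zfp148) and -0.089 (Rlf). The authors' deposited tables list Zfp142 and Rlf in both cell types and Zfp148 in CD8 alone. None of 6 related zinc finger and neighbouring genes carries a symbol here.

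E2f5 encodes a repressor-type member of the E2F family, which acts with pocket proteins to keep cell cycle genes silent in resting cells. It read 523 in Foxo1-deficient against 229 in wild-type CD4 T cells, 2.29-fold higher, and 478 in Foxo1-deficient against 1024 in wild-type CD8 T cells, 2.14-fold lower. Its Foxo1-deficient CD4 and CD8 values were 1.10-fold apart, so here the deficient arrays were level and the wild-type arrays stood on either side. The CD8 difference was under 2-fold with centred arrays. The authors' deposited table gives other intensities for this probe set, 1364 in Foxo1-deficient against 3907 in wild-type CD8 T cells, which are 2.85 and 3.81 times those of the value table, and a 2.86-fold lower level. Of 12 other E2F and pocket protein genes only E2f2, an activator-type E2F, carries a symbol. E2f2 read 1359 in Foxo1-deficient against 594 in wild-type CD4 T cells, 2.29-fold higher, and 769 in Foxo1-deficient against 419 in wild-type CD8 T cells, 1.84-fold higher, so it was higher in both.

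Exoc6 encodes a subunit of the exocyst, the complex that tethers secretory vesicles to the plasma membrane. It was the dimmest of the 10 genes. It read 168 in Foxo1-deficient against 49.8 in wild-type CD4 T cells, at least 2.24-fold higher, and 27.5 in Foxo1-deficient against 176 in wild-type CD8 T cells, at least 2.35-fold lower. Both low values were below the floor. Without a floor its log2 differences were 1.75 and -2.68, but intensities that low are not distinguished from background here. In the authors' deposited tables it was higher by 2.01-fold in CD4 and lower by 2.06-fold in CD8, near the limit of those lists, and its Foxo1-deficient CD8 intensity there was 3.04 times that of the value table. None of the 8 other exocyst genes carries a symbol.

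Sh3kbp1 and Trpm7 were the brightest of the 10. Sh3kbp1 encodes an adaptor with SH3 domains that binds Cbl ubiquitin ligases and links receptors to endocytosis. It read 1556 in Foxo1-deficient against 700.3 in wild-type CD4 T cells, 2.22-fold higher, and 1096 in Foxo1-deficient against 2739 in wild-type CD8 T cells, 2.50-fold lower. Trpm7 encodes an ion channel for magnesium and calcium fused to a protein kinase, needed in mouse for normal thymocyte development. It read 2634 in Foxo1-deficient against 1210 in wild-type CD4 T cells, 2.18-fold higher, and 761 in Foxo1-deficient against 1692 in wild-type CD8 T cells, 2.22-fold lower, and the CD8 difference was under 2-fold with centred arrays. Both are listed in the authors' deposited table for CD8 (2.18-fold and 2.24-fold lower) and not for CD4. None of 8 other genes of the Sh3kbp1 list carries a symbol. Of 13 other channel and magnesium transport genes only Trpm1, of the same channel family, does. Trpm1 read 237 in Foxo1-deficient against 79.3 in wild-type CD4 T cells, 2.99-fold higher, and 888 in Foxo1-deficient against 766 in wild-type CD8 T cells, 1.16-fold higher.

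Ghitm encodes an inner mitochondrial membrane protein of the TMBIM family that helps keep the cristae in shape. It read 829 in Foxo1-deficient against 284 in wild-type CD4 T cells, 2.91-fold higher, and 188 in Foxo1-deficient against 743 in wild-type CD8 T cells, 3.95-fold lower. All 4 values were well above the floor. The authors' deposited tables give a level higher by 2.85-fold in CD4 and lower by 3.82-fold in CD8. None of 9 related mitochondrial genes carries a symbol. Over all 8 lists of families, complexes and partners of the 10 genes, 2 of 82 other genes (E2f2 and Trpm1) carry one. A symbol is carried only by probe sets that the authors listed for a change. These 2 could be compared for that reason, and nothing is read from them about their families.

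**Figure D2:**
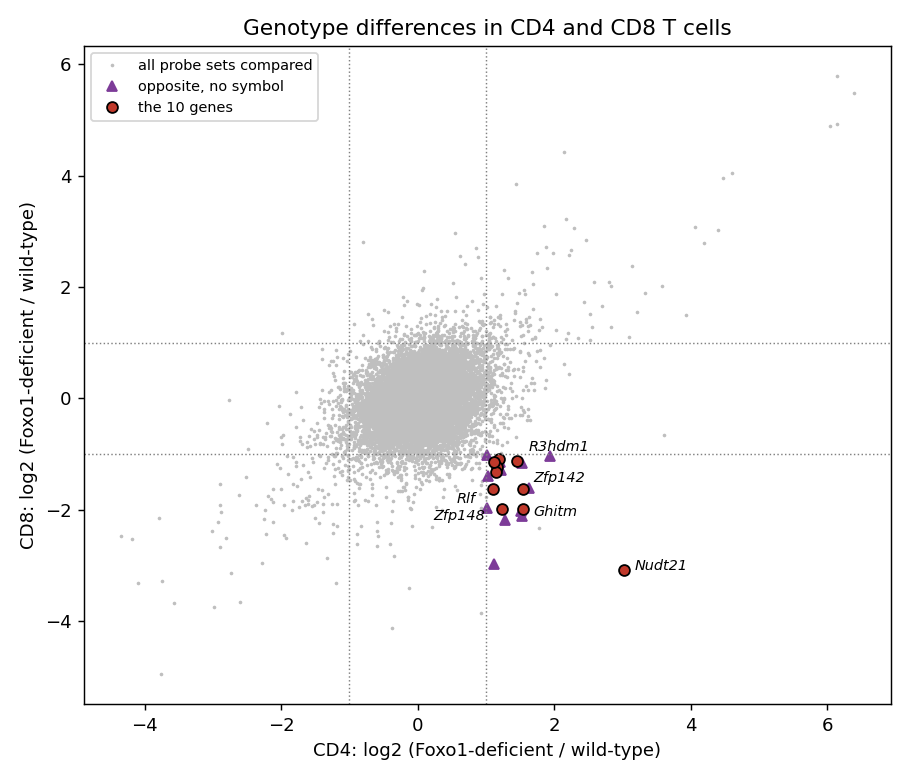
Log2 difference between Foxo1-deficient and wild-type in CD4 (horizontal) and CD8 (vertical) T cells for the 22498 probe sets compared in both, on floored values; dotted lines mark 2-fold. The 10 genes (red) and the 12 probe sets without a symbol (purple) lie below and to the right of these lines, with Nudt21 apart from the others at 3.02 and -3.08.

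Seen between cell types, the same values ran opposite ways in the 2 genotypes. These comparisons use the same 4 arrays as the choice of the genes and are described only. The rule itself makes the CD8 over CD4 difference larger in wild-type than in deficient arrays. All 23 probe sets that met the rule had the same arrangement of high and low arrays. The counts below are therefore not a separate trait of the 10 genes. In Foxo1-deficient arrays CD8 T cells read lower than CD4 T cells for all 10, by 1.10-fold (E2f5) to 5.67-fold (Nudt21), and 8 of 10 were at least 2-fold lower, beside 2.94% of all probe sets compared. In wild-type arrays CD8 T cells read higher than CD4 T cells for all 10, from 1.40-fold (Trpm7) to at least 12.1-fold (Nudt21), and 9 of 10 were at least 2-fold higher, beside 2.2% of all probe sets. Trpm7 was the exception in the wild-type pair, with 1692 in CD8 against 1210 in CD4 T cells. In the deficient pair Sh3kbp1 (1096 in CD8 against 1556 in CD4 T cells) and E2f5 were under 2-fold.

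The order of the 4 levels differed among the genes. Foxo1-deficient CD4 T cells were within 1.5-fold of wild-type CD8 T cells for 7 of 10 genes, and the exceptions were E2f5 and Sh3kbp1, lower in deficient CD4, and Trpm7, higher there by 1.56-fold. On floored values, Foxo1-deficient CD8 T cells were within 1.5-fold of wild-type CD4 T cells for 5 of 10, Nudt21, Zfp142, R3hdm1, Exoc6 and Rlf. Zfp142 and Exoc6 were below the floor in both arrays, and Nudt21 was below it in wild-type CD4 T cells. For these probe sets the true difference may be larger, and among the brightest probe sets only those of R3hdm1 and Rlf were measured as this close. The second Nudt21 probe set, above the floor in all 4 arrays, read 81.1 in both Foxo1-deficient CD8 and wild-type CD4 T cells. The shares of all probe sets within 1.5-fold in these 2 pairs are not at hand, so the counts of 7 and 5 are not read as a trait of the genes. With 1 array each, whether such neighbouring levels differ cannot be tested.

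**Figure D3:**
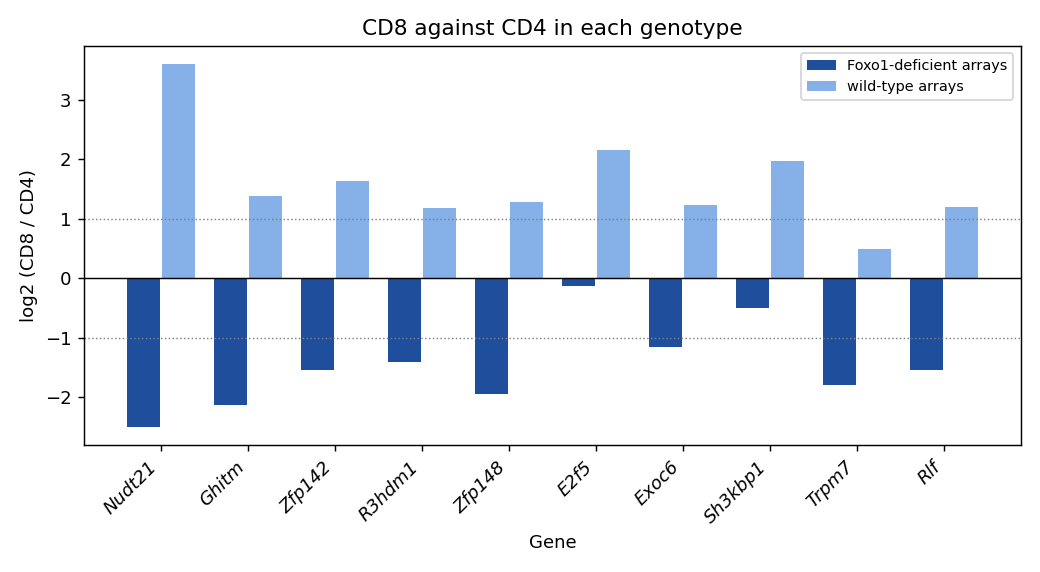
Log2 difference of CD8 over CD4 T cells for each of the 10 genes, in the Foxo1-deficient arrays (dark bars) and the wild-type arrays (light bars), on floored values, so bars of Nudt21 (wild-type), Zfp142, Zfp148 (deficient) and Exoc6 are lower bounds of size. Every dark bar is below 0 and every light bar above it, with E2f5 nearest to 0 at -0.13 in the deficient arrays.

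The authors' deposited tables, whose headers call their intensities raw, hold 6 of the 10 genes in CD4, 9 in CD8 and 5 in both (Nudt21, Ghitm, Zfp142, Exoc6 and Rlf). Each listed gene has the same direction there as in the value table. For E2f5, Sh3kbp1, Trpm7 and Zfp148 the higher level in deficient CD4 T cells, and for R3hdm1 the lower level in deficient CD8 T cells, rest on the value table alone. The headers of the authors' tables name only KO and WT intensities. That they come from the same 4 RNA samples as the value table is inferred, so they are not counted as a replicate of it.

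**Figure D4:**
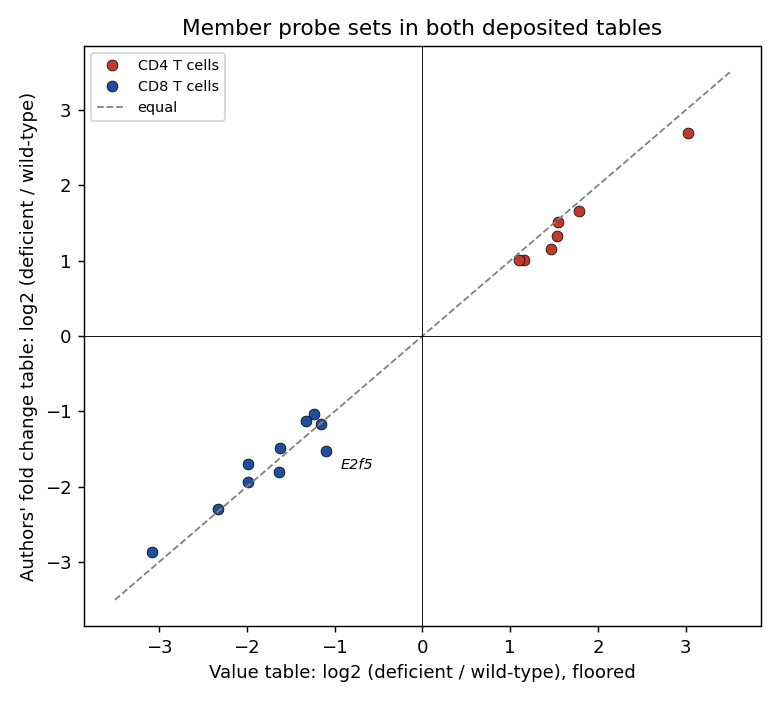
Log2 difference between Foxo1-deficient and wild-type for each probe set of the 10 genes that the authors' fold change tables list, in those tables (vertical) and in the value table with floor (horizontal), CD4 in red and CD8 in blue; the dashed line is equality. Points follow the line, and E2f5 in CD8 lies below it at -1.52 against -1.10.

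Just outside the threshold, by the smaller of their differences in the 2 cell types, came BC028454 (685 in Foxo1-deficient against 343 in wild-type CD4 T cells, a log2 difference just under 1, and 3.43-fold lower in CD8), Taok1 (1.93-fold and 2.80-fold), Kat6b (1.93-fold and at least 2.01-fold), Cryl1 (at least 1.91-fold and at least 14.4-fold) and Cklf (1.90-fold and 2.93-fold). Just inside it were E2f5, Rlf and Trpm7, whose smaller log2 differences were 1.10, 1.10 and 1.12. Taok1 encodes a stress-activated kinase, Kat6b a histone acetyltransferase and Cklf a chemokine-like factor. The threshold thus falls within a run of genes with the same pattern and closely spaced values. By the profile of floored log2 values over the 4 arrays, named genes near to the mean profile of the 10 were Cklf (Euclidean distance 0.46), Ube2d2a (0.48), which encodes a ubiquitin-conjugating enzyme, BC028454 (0.52) and Taok1 (0.59). Cklf read 377 in Foxo1-deficient against 198 in wild-type CD4 T cells, and 140 in Foxo1-deficient against 410 in wild-type CD8 T cells.

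Of the 23 probe sets with this pattern, 11 belong to the 10 genes and 12 carry no symbol. All 12 had both the Foxo1-deficient CD4 and the wild-type CD8 array above the other arrays. Their log2 differences ran between 1.01 and 1.93 in CD4 and between -2.97 and -1.02 in CD8. The brightest, which the authors list in both cell types and which was picked out after its values were seen, read 3502 in Foxo1-deficient against 1209 in wild-type CD4 T cells, and 1186 in Foxo1-deficient against 5120 in wild-type CD8 T cells. The reverse arrangement, with the same thresholds and both directions turned, was met by 1 probe set without a symbol, or 0.00444%. The difference between CD4 and CD8 log2 differences was 2.28 or more, the lowest value among the 10 genes, in 36 probe sets, and -2.28 or less in 6.

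These probe sets were mostly dim. When the 22498 probe sets were split into 4 bins of equal size by mean intensity, from dim to bright, the bins held 8, 10, 2 and 3 of the 23. The mean intensities of the 10 genes ran from 105 (Exoc6) to 1574 (Trpm7) with a median of 423, between percentile 55.4 and percentile 88.9 of all probe sets. The count of 23 against 1 also depended on the floor. With the floor at the 25th percentile, 17.7, 262 probe sets had the pattern of the 10 genes and 157 the reverse one, and with the floor at the 75th percentile, 470.6, the counts were 3 and 0. Sh3kbp1 and Trpm7 remained at least 2-fold both ways at the highest floor.

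Spike-in control medians lay below 0 in both cell types. The log2 difference of deficient over wild-type had a median of -0.25 in CD4 and -0.049 in CD8 over 18 hybridisation spike-in probe sets, and of -0.28 and -0.51 over 17 poly-A spike-in probe sets. The 5′ minus 3′ log2 signal, a measure of RNA quality, shifted between deficient and wild-type CD4 arrays by -0.28 for actin and 0.24 for Gapdh. Between the CD8 arrays it shifted by 0.041 for actin and 0.15 for Gapdh. Their part in the result was not tested. Of 7 B cell markers 3 carry a symbol, Ighm, Igkc and Jchain, and their summed intensity was 1598 in Foxo1-deficient against 405 in wild-type CD4 T cells and 2469 in Foxo1-deficient against 300.1 in wild-type CD8 T cells. These sums are of intensities as deposited and include Ighm below the floor in both wild-type arrays (56.9 in CD4 and 44.3 in CD8). Of the remaining markers, Lyz2 (myeloid) and Hba-a1 (erythroid) carry one. Lyz2 read 165 in Foxo1-deficient against 152 in wild-type CD4 T cells, and 138 in Foxo1-deficient against 46.6 in wild-type CD8 T cells, at least 1.84-fold higher. Hba-a1 read 68.6 in Foxo1-deficient against 152 in wild-type CD4 T cells, at least 2.03-fold lower, and 51.2 in Foxo1-deficient against 120.2 in wild-type CD8 T cells, at least 1.61-fold lower. The part of these marker differences in the result was not tested.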

How the data were processed

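The authors deposited 1 linear intensity per probe set and array, and for each cell type a table of fold changes with the ratio of deficient to wild-type intensity and a gene symbol. Per the labels' protocols, biotin-labelled cRNA was hybridised to Affymetrix arrays. The summary method, background correction and scaling of the probes are not given in the sources used here. Precision is limited by the number of arrays, 4, and no spread within a group can be had.

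The 64 control probe sets were set apart. Symbols came from the authors' tables (660 probe sets, 507 genes), updated through synonyms in RefSeq's gene list of GRCm38.p6. The 10 genes, the gene lists and the promoter motifs were chosen with earlier results of these data known. Intensities were used on the log2 scale, floored at the median (74.9), and probe sets with neither array of a pair above the floor were not compared. With 1 array per group no test was made. By the fixed rule, named genes were the 10, Foxo1, the 5 next by the smaller difference, the 5 nearest by profile over the 4 arrays (1 is not reported here), and list members with a symbol. Counting was tested on simulated data. Alternatives were other floors, scalings, probe sets and thresholds, and the authors' ratios. The work used Python 3.11.15, pandas 2.3.3, numpy 2.4.6 and matplotlib 3.10.9.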

Additional observations from a re-analysis of the deposited data

Results flagged for a closer look

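The difference between the genotype effects in CD4 and CD8 T cells drew attention in all 10 genes, because the CD4 arrays differed one way and the CD8 arrays the other. The genes were chosen for this, with 1 array per group, and the difference was not tested. As the CD4 minus the CD8 log2 difference between Foxo1-deficient and wild-type, it was 6.10 for Nudt21, 3.52 for Ghitm, 3.17 for Zfp142, 2.60 for R3hdm1, 3.22 for Zfp148, 2.29 for E2f5, 2.39 for Exoc6, 2.47 for Sh3kbp1, 2.28 for Trpm7 and 2.73 for Rlf. The values of Nudt21, Zfp142, Zfp148 and Exoc6 rest on at least 1 intensity below the floor and are lower bounds.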

How the results depend on the processing

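With the 75th percentile as the floor, the median log2 difference of the 10 genes was 0.24 in CD4 and -0.53 in CD8, the median difference between these effects was 0.99, and CD8 over CD4 was -0.23 in deficient and 0.45 in wild-type arrays. At that floor 2 genes were at least 2-fold higher in deficient CD4, beside 0.712% of all probe sets compared. In deficient CD8, 3 were at least 2-fold lower, beside 1.06%. Among deficient arrays 1 was at least 2-fold lower in CD8 than in CD4, and among wild-type arrays 2 were at least 2-fold higher. Most intensities of the 10 genes lie below that floor, which sets them equal. At a threshold of 3-fold, 1 gene was higher in deficient CD4 and 5 were lower in deficient CD8. The shares of all probe sets at 3-fold, and those between cell types at the 75th percentile floor, are not at hand. Nothing is read from these counts, as the genes were chosen on the same differences. The authors' ratios were past 2-fold for 6 genes in CD4, all of the 10 that are listed there. Those tables list probe sets for a change, so this count is no check of the result, and the other genes have no ratio there. The 25th percentile as the floor, no floor (chosen after seeing the data), centring on array medians, quantile normalization and other choices of probe set left every median direction as it was. Among 410 values of single genes under all alternatives, 1 changed sign, E2f5 in CD8 over CD4 of the deficient arrays with centred medians (0.0023), and 68 moved by more than the spread between probe sets of a gene. Many of the 410 could not change sign. Only 1 of the 10 genes has several named probe sets, so for the others the mean or second probe set returned the main value. A change of floor cannot turn a sign. The 410 are therefore no measure of stability. With centred medians R3hdm1, E2f5 and Trpm7 were under 2-fold in CD8, which left 7 of the 10 genes and 17 probe sets with 3 the reverse, against 20 and 1 after quantile normalization. No paired analysis was possible because each group has 1 array.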
